A study of Mus musculus with 12 samples.

Results

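The interleukin, TNF and interferon family genes are the cytokines, cytokine receptors, adaptors, transcription factors and feedback inhibitors whose names begin with Il and a digit, Tnfrsf, Tnfsf, Ifn, Irf and a digit, Csf, Traf and a digit, or Socs. On the array, 45 probes with a single gene symbol met this rule, for 35 of the 5723 named genes. Il1r1 was set aside as the gene targeted in the mutant, and a gene with several probes was represented by the brightest of those with a value on every array used, or else by its brightest. This choice used names, gaps and mean brightness only. The probes of 21 genes gave a value on every array used and were tested. The other 14 had gaps and are described separately.

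The cells were primary mixed glia, cultured for 10 to 12 days, of wild-type or IL-1R1-/- genotype; the mutant lacks the signalling receptor for interleukin-1. Each culture gave 1 array for vehicle and 1 for rrIL-1β at 10 ng/ml, both taken at 4 hours. Hybridised with radio-labelled cDNA, the 12 arrays stand for 3 independent replicates per genotype, with treatments paired inside each. A mixed culture yields 1 RNA sample from all its cells, so fewer cells of a type and less RNA per cell cannot be told apart.

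IL-1β binds IL-1R1, which recruits MyD88, IRAK kinases and TRAF6 and frees NF-κB from its inhibitor IκBα, the product of Nfkbia. NF-κB then drives cytokine, chemokine and feedback genes. Most other interleukin and interferon receptors signal through JAK kinases and STAT factors, which SOCS proteins restrain, while TNF receptors use TRAF adaptors and IRF factors switch on interferon responses. In glial cultures, astrocytes and microglia are known for carrying out such responses.

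Both columns of IL-1R1-/- replicate 3 were rescaled copies of other columns and were left out. The vehicle column equalled wild-type vehicle replicate 1 at a ratio of 1.12 for 5959 of 5982 shared probes, and the values of IL-1R1-/- vehicle replicate 1 stood at a ratio of 1.67 to those of the IL-1β column for 6531 of 6584. Values below therefore come from 10 arrays, with 3 wild-type and 2 IL-1R1-/- cultures, whose median intensities ranged from 4649 to 60399. Fold changes of probes next to each other in the deposited order correlated at 0.636 in wild-type glia. A smooth trend over a plate layout inferred from these same values was removed from every array, which brought this correlation to 0.0509. Subtracting what neighbours share lowers their correlation by itself, so the lower value does not test the layout. Values before removal are given beside the calls that depend on it. The Il1r1 probe read between 13.74 and 14.37 on the log2 scale in all 10 arrays and differed by -0.00 between genotypes in vehicle glia (adjusted p = 0.996, limma). The place of this probe relative to the deleted part of the gene is unknown here, so it checks nothing about the genotype. Among markers of the cultured cells, Id4 of the 3 tested astrocyte genes fell in wild-type glia (-1.24 ± 0.15 SE, adjusted p = 0.00156, limma). The other astrocyte genes, Glul at -0.58 and Slc1a2 at 0.13, differed in direction, and neither passed. Gfap was not among the tested probes. Of the 6 microglial genes, C1qc, Cd68, Ctss, Itgam, Tmem119 and Tyrobp, 0 passed. None of the 3 oligodendrocyte, 2 neuron, 1 meningeal fibroblast, 5 endothelial and mural and 3 T and B cell genes tested passed. Before trend removal, where 6.18% of all probes passed, 2 more markers did. The astrocyte gene Glul was lower (-0.84, adjusted p = 0.0291, against -0.58 and 0.112 after, limma). The endothelial gene Emcn was higher (0.84, adjusted p = 0.0187, against 0.22 and 0.555 after, limma). The part of these markers in the family's values was not tested.

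None of the 21 tested family genes passed an adjusted p of 0.05 for IL-1β against vehicle in wild-type glia, against 0.473% of all 5713 probes (limma, Benjamini-Hochberg over all probes). Their changes ran from -0.35 for Socs4 to 0.29 for Tnfsf10 on the log2 scale, and the lowest adjusted p was 0.370. At an unadjusted p under 0.05, 3 of the 21 (14.3%) passed, Socs4, Tnfsf10 and Il25, beside 11.2% of all probes. The median change was 0.02 for the family and 0.00 for all probes, and the median size of change was 0.0626 against 0.113. After trend removal, all 21 intervals (95%) lay inside a 2-fold change either way, as did 99% of all intervals. The outermost limits were 1.46-fold higher and 1.58-fold lower. These intervals carry no error from the removal itself, and intervals before removal were not counted. Before removal, changes ran from -0.60 ± 0.17 SE for Il25 to 0.75 ± 0.19 SE for Il4ra.

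Related genes on the same arrays did respond. Nfkbia, which encodes the NF-κB inhibitor that NF-κB itself induces, rose 3.00-fold (1.58 ± 0.16 SE, adjusted p = 0.000259, limma), the only one of 7 tested NF-κB genes to pass. Tnfaip2, a gene named for its induction by TNF, rose 2.39-fold as 1 of 6 tested genes from the TNF superfamily under other names and its adaptors. Osmr, the oncostatin M receptor subunit and the single tested gene of the gp130 group, rose 1.79-fold. Among 12 interferon-stimulated genes, the guanylate-binding protein genes Gbp3 and Gbp7 rose, by 2.22-fold and 1.85-fold. The 2 tested genes of IL-1 and Toll-like receptor signalling, Casp1 and Ticam1, and the 7 of the JAK-STAT group did not pass. No gene on these lists passed as lower. Before trend removal Tbk1 (0.72), Birc3 (0.95), Iigp1 (0.85) and Usp18 (0.89) passed as well. In that setting 6.18% of all probes passed, against 0.473% after removal. These lists were chosen with earlier results of these data known.

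**Figure D1:**
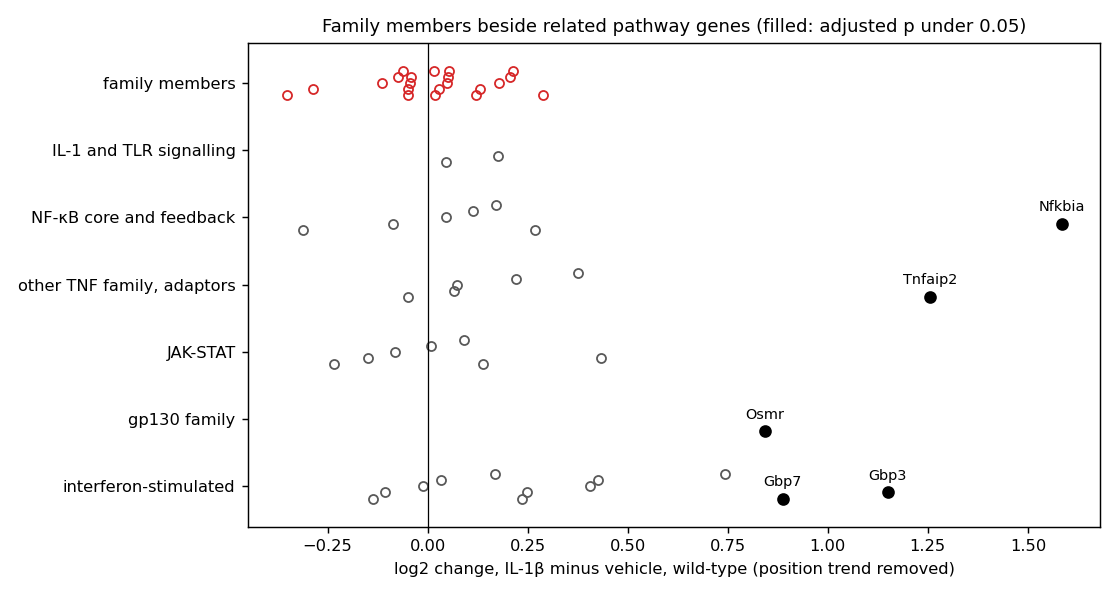
Log2 change with IL-1β in wild-type glia (horizontal axis, position trend removed) for the tested family genes and the genes of 6 related lists, 1 point per gene. Filled points passed an adjusted p of 0.05 in limma; the family points lie between -0.35 and 0.29, while Nfkbia lies at 1.58.

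Interleukin ligands came first by role, with 6 of 7 tested. Il25, the interleukin-17 family cytokine also called IL-17E, read 14.32, 14.27 and 14.26 in the wild-type vehicle arrays and 13.93, 13.82 and 14.24 with IL-1β. Each treated array was below its own vehicle array and below all 3 vehicle arrays, though culture 3 differed by -0.02 only. The fitted change was -0.29 ± 0.13 SE, which did not pass (adjusted p = 0.444, limma). Before trend removal it was -0.60, with an adjusted p of 0.0512, and in the fit with gaps kept and no removal it was -0.62 and passed (adjusted p = 0.041). The IL-1R1-/- arrays were at 14.49 and 14.60 with vehicle and 14.56 and 14.44 with IL-1β, all above the wild-type arrays. Both treatments came from the same cultures, and the share of all probes with this pattern was not counted. The vehicle difference between genotypes was 0.26 ± 0.18 SE and did not pass (adjusted p = 0.757, limma), and it was -0.04 before removal.

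Il1f6, which encodes the interleukin-1 family cytokine IL-36α, varied more between cultures than with treatment. Its wild-type vehicle arrays read 14.51, 16.19 and 14.38, and the IL-1β arrays 14.94, 15.72 and 14.57. Culture 2 stood above the other wild-type cultures under both treatments, and the change of 0.05 ± 0.16 SE averaged paired differences of 0.43, -0.47 and 0.19. Il4, the T helper cytokine, changed by 0.02 and Il12b, the shared subunit of interleukins 12 and 23, by -0.04. Il16, a chemoattractant for CD4+ cells, was at -0.05, and Il17b was at 0.05. None of these 5 passed the test.

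Both tested receptors of interleukins and colony-stimulating factors had positive point estimates. Il4ra, the receptor chain shared by interleukins 4 and 13, read 14.06, 14.24 and 14.04 with vehicle and 14.12, 14.71 and 14.14 with IL-1β in wild-type glia. The treated array of culture 2 stood apart from the rest, and the groups overlapped. The change was 0.21 ± 0.13 SE (95% interval -0.07 to 0.49, adjusted p = 0.593, limma).

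Il4ra was 1 of 2 among the 21 tested genes whose call turned on the position trend. Without removal its vehicle arrays read 13.64, 13.91 and 13.68 and its IL-1β arrays 14.06, 15.16 and 14.28, with no overlap. The change was then 0.75 ± 0.19 SE and passed (adjusted p = 0.0373, limma), and 0.54 of it was the smooth trend at this probe's plate position. A second Il4ra probe, missing on 1 IL-1R1-/- culture, gave -0.02 after removal and -0.29 before. In IL-1R1-/- glia the first probe was at 13.96 and 14.06 with vehicle and at 14.05 and 13.95 with IL-1β.

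Csf2rb, the β chain common to the receptors for GM-CSF, interleukin 3 and interleukin 5, changed by 0.21 ± 0.13 SE (adjusted p = 0.606, limma). Its paired differences were 0.13, -0.00 and 0.49, so culture 3 carried most of the estimate. Without removal the change was 0.36 and did not pass either.

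Tnfsf10, which encodes the death ligand TRAIL, was 1 of 4 tested family genes (19%) whose 3 wild-type pairs all moved the same way, beside 30.3% of all probes. The others were Il4ra upwards and Il25 and Socs4 downwards. Tnfsf10 read 13.32, 14.17 and 13.73 with vehicle and 13.58, 14.36 and 14.15 with IL-1β. Cultures differed from one another by more than the treatments did, and the groups overlapped. Within cultures the differences were 0.26, 0.19 and 0.42, for a change of 0.29 ± 0.12 SE, or 1.22-fold with a 95% interval of 1.02 to 1.46 (adjusted p = 0.398, limma). By mean log2 intensity Tnfsf10 (13.87) was among the dimmest tested family genes, with Tnfrsf13b (13.56), Tnfrsf4 (13.71) and Traf6 (14.04). How much background these values hold is unknown.

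TNF receptors were represented by 3 tested genes. Tnfrsf4, the T cell co-stimulatory receptor OX40, read 13.79, 13.33 and 13.55 with vehicle and 13.71, 13.62 and 13.87 with IL-1β. The groups overlapped, and the change was 0.18 ± 0.13 SE (adjusted p = 0.697, limma). Before removal it was 0.65, of which 0.47 was trend, with an adjusted p of 0.062. Tnfrsf13b, the B cell receptor TACI, changed by 0.03, and Tnfrsf19, the receptor TROY, by -0.08.

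Traf6, the ubiquitin ligase that carries the IL-1 receptor signal, had a pair of probes on all arrays, and neither passed. The brighter gave -0.06 ± 0.16 SE and the other 0.26 ± 0.13 SE, with adjusted p-values of 0.937 and 0.488 (limma). Paired differences of the brighter probe were -0.45, 0.20 and 0.06, so it did not keep 1 direction over cultures. Traf7, another ubiquitin ligase of the family, changed by 0.02.

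Transcription factors of the interferon pathway showed small changes. Irf8, which macrophages and microglia need for their development, read 14.66, 15.01 and 14.61 with vehicle and 15.01, 14.87 and 14.75 with IL-1β. These groups overlapped, and the change was 0.12 ± 0.13 SE (adjusted p = 0.808, limma). A second Irf8 probe, missing in wild-type culture 3, gave 0.40 ± 0.16 SE in a fit that kept gaps (adjusted p = 0.271, limma). Before removal this second probe gave 0.89 and passed (adjusted p = 0.0316). Irf9, the DNA-binding subunit of the interferon-activated complex ISGF3, gave 0.05 with paired differences of -0.39, 0.20 and 0.34. Irf2bp1, a corepressor that binds IRF2, gave -0.04.

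SOCS genes encode feedback inhibitors of cytokine receptors, and all 4 on the array were tested. Socs4, which acts on growth factor receptor signalling among others, had the lowest adjusted p of the 21 tested genes. It read 15.25, 14.87 and 15.33 with vehicle and 14.66, 14.81 and 14.92 with IL-1β in wild-type glia. The treated arrays were below their own vehicle arrays in all 3 cultures, though by 0.06 only in culture 2, and the groups overlapped. The change was -0.35 ± 0.14 SE (95% interval -0.66 to -0.05, adjusted p = 0.370, limma). It was -0.17 before removal, where the trend at its plate position was 0.18. A second, gapped Socs4 probe gave 0.21 ± 0.23 SE from 1 wild-type culture.

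Socs2, a STAT5-induced inhibitor of growth hormone signalling, was the other of the 21 whose call turned on the trend. It read 13.92, 14.11 and 14.29 with vehicle and 14.11, 14.41 and 14.20 with IL-1β, and these groups overlapped. The change was 0.13 ± 0.12 SE (adjusted p = 0.770, limma). Before removal the arrays read 13.47, 13.97 and 13.95 against 14.09, 14.86 and 14.44, with no overlap. The change was then 0.66 ± 0.17 SE and passed (adjusted p = 0.0395, limma), 0.53 of it being the trend at that position.

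Socs5, another SOCS box protein, moved in opposite directions in different cultures, with paired differences of 0.06, -0.80 and 0.40. Its change was -0.11 ± 0.20 SE with all 3 cultures and 0.28 without culture 2, and neither passed. Socs7 changed by -0.05.

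**Figure D2:**
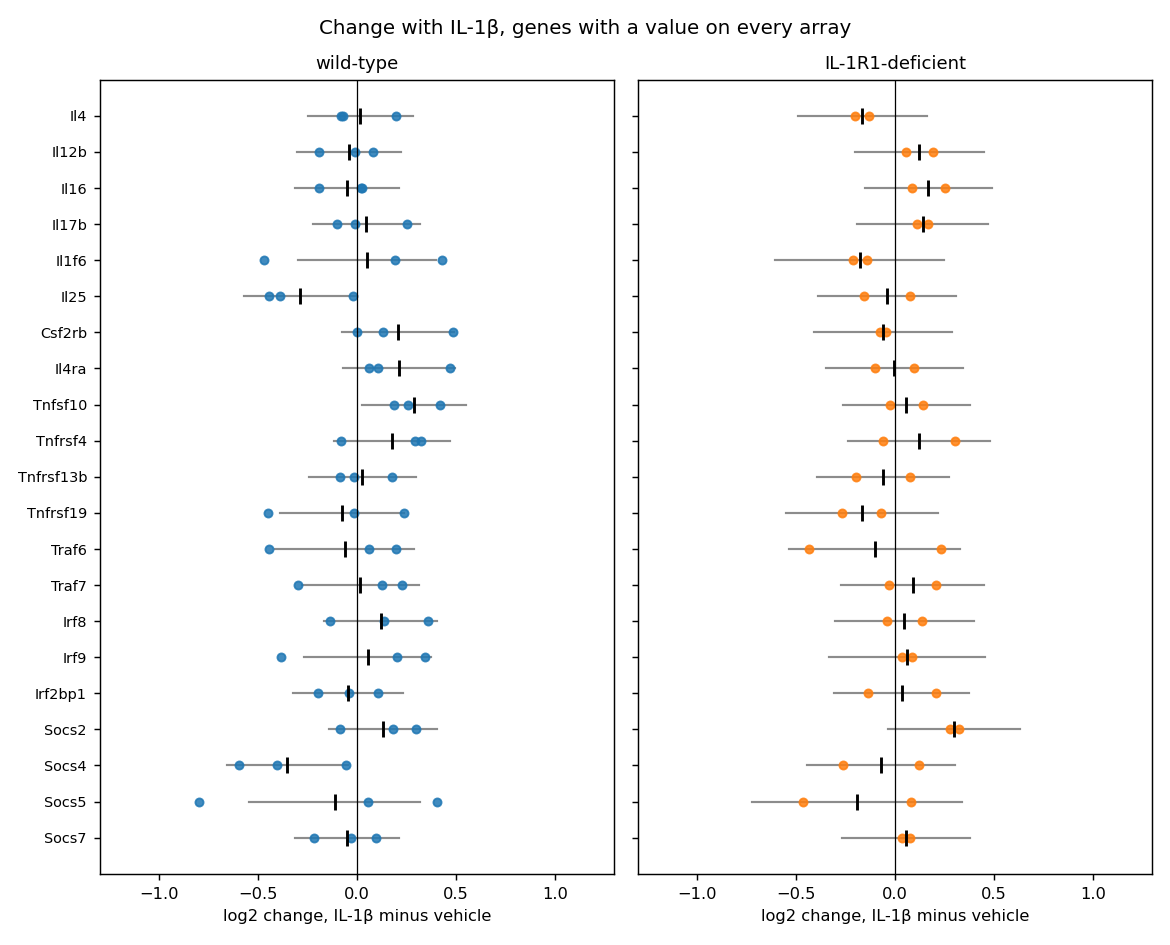
Log2 change with IL-1β for the 21 tested family genes in wild-type (left) and IL-1R1-deficient glia (right), position trend removed. Points are single cultures (3 and 2), black ticks the fitted change and grey lines its 95% interval; the intervals lie inside a 2-fold change, and the Socs5 cultures spread from -0.80 to 0.40 in wild-type glia.

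Over the whole family, 2 of 21 genes (9.52%) passed before trend removal, Il4ra and Socs2, beside 6.18% of all probes. Leaving out any 1 of the 5 cultures ended both calls in 3 cases, wild-type cultures 1 and 2 and IL-1R1-/- culture 2. Without wild-type culture 3 Socs2 still passed (0.73, adjusted p = 0.049, limma), and without IL-1R1-/- culture 1 Il4ra did (0.76, adjusted p = 0.0484). Changes then ran from -0.60 for Il25 to 0.75 for Il4ra, with a median of -0.07 and a median size of 0.274. Removal subtracts whatever neighbouring probes share, so a change that neighbours truly had in common would be subtracted too.

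**Figure D3:**
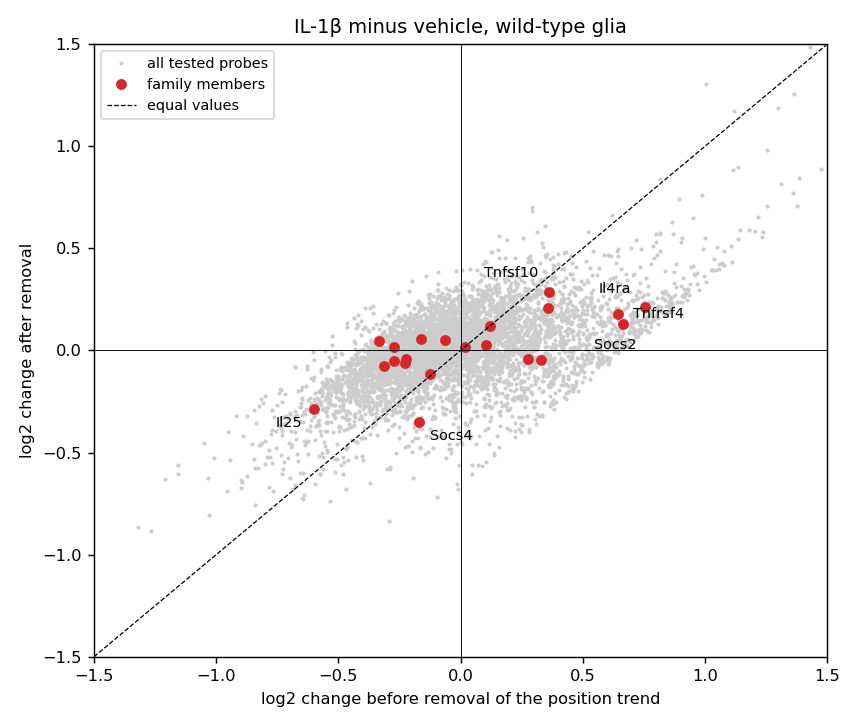
Log2 change with IL-1β in wild-type glia before (horizontal axis) and after removal of the position trend (vertical axis), for all tested probes (grey) and the family genes (red); probes beyond 1.5 are not drawn. Il4ra moved from 0.75 to 0.21, Socs2 from 0.66 to 0.13 and Tnfrsf4 from 0.65 to 0.18.

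In IL-1R1-/- glia none of the 21 genes passed for IL-1β against vehicle, where 0% of all probes did (limma). At an unadjusted p under 0.05 the family had 0 genes, and all probes 6.63%. Changes ran from -0.19 for Socs5 to 0.30 for Socs2, with a lowest adjusted p of 0.807. After trend removal, all 21 intervals (95%) lay inside a 2-fold change either way, beside 98.3% of all probes. Both cultures moved alike for 10 genes (47.6%), beside 57.8% of all probes.

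Socs2 had the lowest adjusted p in IL-1R1-/- glia. It read 13.87 and 13.94 with vehicle and 14.19 and 14.21 with IL-1β, without overlap. The change was 0.30 ± 0.15 SE (95% interval -0.04 to 0.63). It was of similar size before removal, at 0.32. Il16 was at 0.17 ± 0.15 SE and Il17b at 0.14 ± 0.15 SE, with adjusted p-values of 0.942 and 0.970 (limma). On the lower side, Il4 was at -0.17 ± 0.15 SE (0.944), Tnfrsf19 at -0.17 ± 0.18 SE (0.965) and Il1f6 at -0.18 ± 0.20 SE (0.971). None of these 5 passed.

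The response of wild-type glia minus that of IL-1R1-/- glia passed for 0 of the 21 genes, beside 0.158% of all probes (limma). At an unadjusted p under 0.05 it passed for 0 genes, beside 8.05% of all probes. Differences ran from -0.28 for Socs4 to 0.27 for Csf2rb, and the lowest adjusted p was 0.796. For Il4ra the difference was 0.22 (95% interval -0.23 to 0.66), and for Tnfsf10 it was 0.23 (-0.18 to 0.65). Il25 differed by -0.24 ± 0.21 SE and Il16 by -0.22 ± 0.19 SE, with adjusted p-values of 0.832 and 0.841 (limma). The same test passed for Nfkbia, where the difference was 1.64 ± 0.25 SE (adjusted p = 0.0191), and for Tnfaip2, at 1.76 ± 0.20 SE (adjusted p = 0.0027). The Tnfaip2 difference includes an estimate of -0.51 in IL-1R1-/- glia, which did not pass (adjusted p = 0.516, limma). Osmr (1.16), Gbp3 (1.27) and Gbp7 (1.05), which rose in wild-type glia, did not pass for the difference (adjusted p = 0.0909 each, limma).

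**Figure D4:**
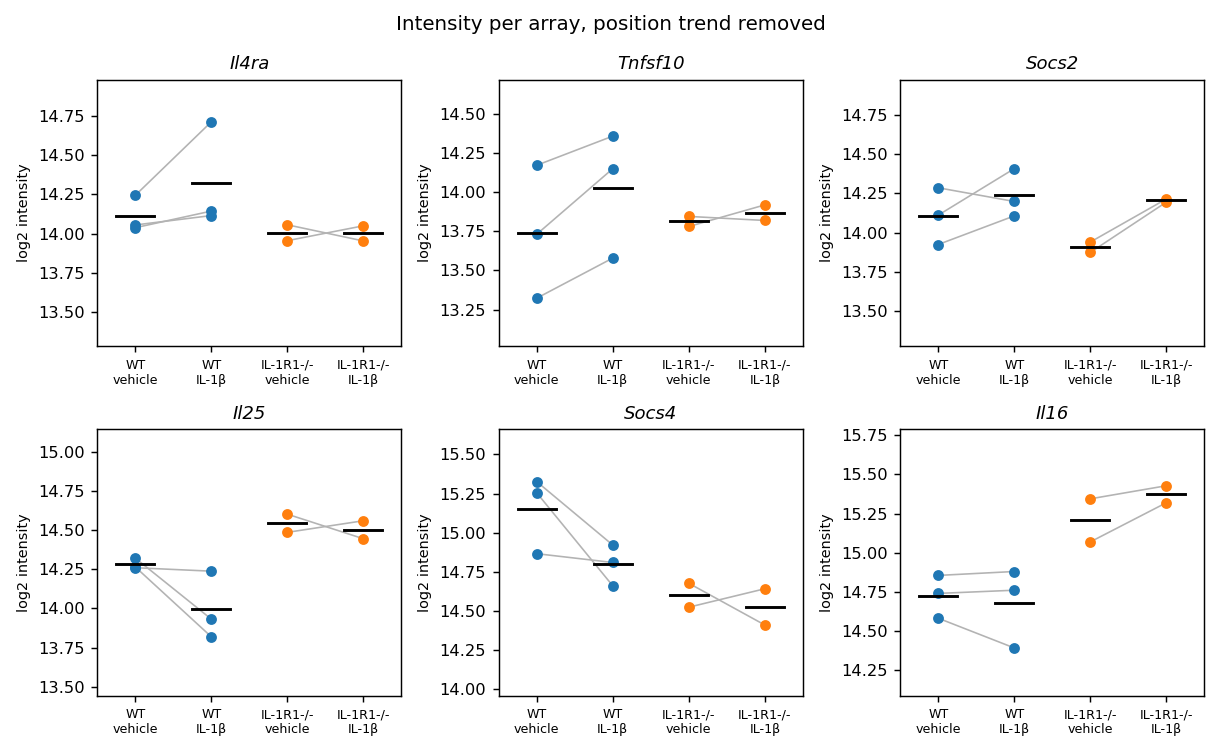
Log2 intensity per array (vertical axis, position trend removed) of 6 family genes in the 4 groups; lines join the vehicle and IL-1β arrays of a culture, and black bars are group means. Tnfsf10 was higher and Socs4 lower with IL-1β in each wild-type culture, and Il16 was higher in both IL-1R1-/- cultures than in the wild-type ones.

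Vehicle-treated IL-1R1-/- and wild-type glia were compared next, and again 0 of the 21 genes passed, as did 0% of all probes (limma). At an unadjusted p under 0.05 the family had 2 genes (9.52%), Socs4 and Il16, and all probes 7.58%. The genotypes did not overlap for 6 genes (28.6%), Il4, Il16, Il17b, Il25, Irf2bp1 and Socs4, beside 24.5% of all probes. The median size of difference was 0.20 for the family and 0.16 for all probes.

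Il16 read 15.34 and 15.07 in IL-1R1-/- vehicle glia and 14.86, 14.58 and 14.74 in wild-type vehicle glia. It was also higher with IL-1β, at 15.43 and 15.32 against 14.88, 14.39 and 14.76, so neither treatment showed overlap. Both treatments came from the same cultures, so the IL-1β arrays are no separate replicate of the genotype difference. The share of all probes without overlap under both treatments was not counted. The vehicle difference was 0.48 ± 0.18 SE (95% interval 0.09 to 0.87, adjusted p = 0.523, limma), and 0.74 before removal. Socs4 differed the other way, at 14.52 and 14.68 in IL-1R1-/- against 15.25, 14.87 and 15.33 in wild-type vehicle glia. The difference was -0.55 ± 0.20 SE with the same adjusted p. Csf2rb differed by 0.43 ± 0.21 SE and Il17b by 0.36 ± 0.19 SE, with adjusted p-values of 0.648 and 0.683 (limma). Tnfrsf13b differed by -0.32 ± 0.23 SE and Socs2 by -0.20 ± 0.17 SE (0.776 and 0.821), and Socs2 was at 0.16 before removal. None of these 4 passed. With 5 cultures in this comparison the intervals were wide, and that of Il1f6 ran from -1.03 to 0.88.

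The 14 gapped genes were outside the test above and were fitted in an alternative with gaps kept, in which 2.05% of all 8724 probes passed in wild-type glia (limma). Of all 35 family genes, 1 (2.86%) passed, and it was among the gapped. Wild-type pairs were complete for 1 of the 14, Il33, while 6 had lost 1 wild-type culture and 7 had lost 2. Changes for these 14 ran from -0.97 to 1.13, with a median of 0.04.

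The passing gene was Irf2bp2, a partner of IRF2, whose probe had values in wild-type culture 3 only. It read 14.89 with vehicle and 16.02 with IL-1β, a change of 1.13 ± 0.24 SE (adjusted p = 0.0494, limma). A lone pair has no replicate of its own, and its error assumes that it varies like the IL-1R1-/- cultures and the other probes. A second Irf2bp2 probe, present in the other two wild-type cultures, gave -0.13 ± 0.20 SE. In IL-1R1-/- glia the first probe read 16.47 and 14.83 with vehicle and 16.97 and 15.07 with IL-1β, a change of 0.37 ± 0.17 SE (adjusted p = 0.754).

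Ifnlr1, the specific receptor chain for type III interferons, had the lowest change. Its single wild-type pair read 16.71 with vehicle and 15.74 with IL-1β (-0.97 ± 0.26 SE, adjusted p = 0.113, limma). In IL-1R1-/- glia it read 17.13 and 15.08 with vehicle and 16.97 and 15.45 with IL-1β, so cultures of that genotype differed by more than the wild-type pair. Ifngr1, a receptor chain for interferon-γ, also rested on 1 wild-type pair and gave -0.26 ± 0.41 SE. In IL-1R1-/- glia Ifngr1 read 18.99 and 18.84 with vehicle and 17.71 and 19.01 with IL-1β, so these cultures moved in opposite directions.

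Il15ra, the chain that presents interleukin 15, read 14.11 and 13.64 with vehicle and 14.49 and 14.06 with IL-1β in its 2 wild-type cultures. Both treated arrays were higher than their own vehicle arrays, and the groups overlapped. The change was 0.40 ± 0.15 SE (adjusted p = 0.257, limma), and 0.79 before removal, where it passed (adjusted p = 0.0497). Its IL-1R1-/- arrays lay between 14.20 and 14.46, with a change of 0.01.

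Il33, a nuclear alarmin of the interleukin-1 family, read 14.31, 14.42 and 14.48 with vehicle and 14.80, 14.47 and 14.41 with IL-1β. Culture 1 alone was clearly higher with IL-1β, and the change was 0.16 ± 0.15 SE (adjusted p = 0.701, limma). Il17rc, a subunit of the interleukin-17 receptor, gave 0.54 ± 0.23 SE from 1 wild-type pair, and 1.16 before removal. Il7r, the interleukin-7 receptor, gave 0.16 ± 0.18 SE.

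Among TNF receptors, the probes of Tnfrsf1b (TNFR2) covered different wild-type cultures. The brighter gave -0.43 ± 0.24 SE from culture 1 alone, and the other, complete in wild-type glia, 0.11 ± 0.16 SE. In wild-type culture 1 the other probe was also lower, at -0.28, and it was at 0.42 and 0.21 in cultures 2 and 3. In IL-1R1-/- culture 1 the brighter probe changed by 0.65 and the other by -0.03. Tnfrsf9, the co-stimulatory receptor 4-1BB, gave 0.20 ± 0.19 SE from 2 wild-type pairs. Tnfsf8, the CD30 ligand, gave 0.03. Before removal Tnfsf8 was at 0.81, of which 0.78 was trend, and did not pass (adjusted p = 0.0555, limma). Traf3ip2, the adaptor Act1 of interleukin-17 receptors, gave 0.06.

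Irf1, an early interferon- and NF-κB-responsive factor, read 15.42 and 14.94 with vehicle and 15.39 and 14.96 with IL-1β in 2 wild-type cultures. Vehicle and treated arrays nearly coincided, and the change was -0.00 ± 0.16 SE (95% interval -0.36 to 0.36, limma). A second Irf1 probe gave -0.13 ± 0.20 SE. Irf5, a factor of Toll-like receptor signalling, gave -0.02 and Irf2bpl -0.14, each from 1 wild-type pair.

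**Figure D5:**
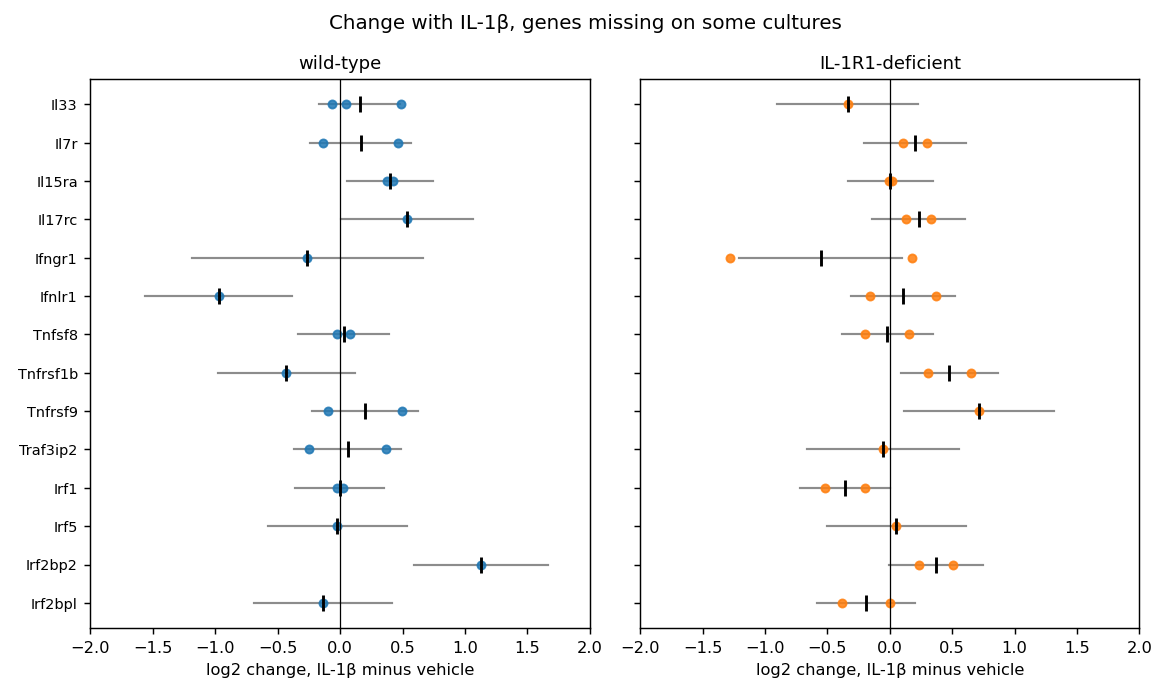
Log2 change with IL-1β for the 14 family genes with gaps, in wild-type (left) and IL-1R1-deficient glia (right), position trend removed. Points are single cultures, black ticks the fitted change and grey lines its 95% interval; Irf2bp2 at 1.13 and Ifnlr1 at -0.97 each rest on 1 wild-type culture.

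Promoter sequence was set beside these values because Nfkbia, which rose, is a classical NF-κB target. The RefSeq promoter table (GRCm38.p6) matched 27 of the 35 genes by symbol, and the 250 bases before each annotated start were searched on both strands. An NF-κB motif, GGG, then any 2 bases, then TTTCC, was found for 3 of the 27 (11.1%), Il16, Il17rc and Tnfrsf9, and for 1.65% of 27025 genes in the table. Windows around the matches follow, 5′ to 3′ on the gene's strand, with the matched letters in capitals; Nfkbia, which is outside the family, stands first for comparison.
Nfkbia, chr12:55492648-55492706, minus strand: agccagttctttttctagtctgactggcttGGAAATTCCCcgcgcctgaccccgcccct
Il16, chr7:83655505-83655574, minus strand: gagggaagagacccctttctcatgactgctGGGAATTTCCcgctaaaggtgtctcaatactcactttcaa
Tnfrsf9, chr4:150927926-150927995, plus strand: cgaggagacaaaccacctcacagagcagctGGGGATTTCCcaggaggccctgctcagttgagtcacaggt
Il17rc, chr6:113471205-113471258, plus strand: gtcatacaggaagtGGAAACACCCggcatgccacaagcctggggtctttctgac

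The Nfkbia and Il16 windows hold the same letters, GGGAATTTCC on one strand or the other. The Nfkbia match ended 20 bases before the start and the Il16 match 40 bases before it. Nfkbia changed by 1.58 with IL-1β in wild-type glia, while Il16 changed by -0.05 (95% interval -0.31 to 0.21). Tnfrsf9 gave 0.20 and Il17rc 0.54 in the fit with gaps kept, and neither passed.

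The STAT motif TTCNNNGAA was found for 6 of the 27 (22.2%), Il7r, Irf1, Irf2bp1, Irf8, Tnfrsf1b and Tnfrsf9, against 8.13% of genes in the table. An interferon response motif, GAAA, any 2 bases and GAAA again, was found for Il4 and Tnfrsf1b (7.41%) against 3.46%. The Irf1 and Irf8 matches are shown, with capitals as above, because both factors act in the interferon pathway. The Irf8 window holds a second match, TTCAGAGAA, left in lower case.
Irf1, chr11:53769894-53769962, plus strand: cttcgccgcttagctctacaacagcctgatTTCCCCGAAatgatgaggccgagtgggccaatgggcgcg
Irf8, chr8:120736157-120736225, plus strand: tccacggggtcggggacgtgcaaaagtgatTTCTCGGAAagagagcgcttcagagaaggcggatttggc

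After trend removal, no probe of Irf1 or Irf8 passed for IL-1β in wild-type glia. A match describes letters in a window and not a bound site.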

How the data were processed

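Deposited values are linear spot intensities, made per the labels from radio-labelled cDNA of TRIzol-extracted, DNase-treated RNA. The software, background correction and filter were not given in the sources used here. Each array's dimmest probe lay at 0.225 to 0.368 of the array median. The platform annotation gave 1 symbol to 7153 of 8734 probes.

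Intensities were taken to log2, quantile-normalized and freed of the position trend: each array's deviation from the all-array mean was smoothed (loess, span 0.2) over 16 rows and 24 columns of inferred plates, in 2 parts split after plate 11, and subtracted. Of 8734 probes, 5713 (65.4%) had values on all 10 arrays. Each was fitted in limma 3.58.1 (R 4.3.3; lmFit, eBayes) with a term per culture and an IL-1β term for either genotype; errors are SE of the fit. The vehicle comparison fitted the 4 groups, culture being a random block (duplicateCorrelation, 0.464). P-values are two-sided and adjusted by Benjamini and Hochberg over all probes, threshold 0.05. The fit with gaps kept used every probe with a wild-type pair (8724). Scripts were tested on simulated data.

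Pairing came from the design text and replicate numbers. Deviations of a culture's arrays from their group means correlated at 0.446, 0.619 and 0.499 in wild-type cultures and 0.584 in IL-1R1-/- cultures. The deviations of the 2 IL-1R1-/- cultures mirror each other by construction, so 0.584 is 1 value and not 2.

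The genes, related lists, markers and tests were chosen with earlier results of these data known. Named with full statistics were genes that passed a comparison with or without trend removal and the 3 with the smallest p per direction; every other family gene is named by role. Alternatives covered normalization, trend removal, gaps, dim probes, moderation, the block, copied columns and single cultures.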

Additional observations from a re-analysis of the deposited data

How the results depend on the processing

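For IL-1β in wild-type glia, the count of passing family genes was 0 after trend removal and 2 without removal. It was 1 with gaps kept, and 5 with gaps kept and no removal, a setting chosen after seeing the data (Il15ra, Il25, Il4ra, Irf2bp2 and Socs2). Of all probes, 0.473% passed after removal, 6.18% without removal and 2.05% with gaps kept. That share was not counted for gaps kept with no removal, so the 5 cannot be set against one. Leaving out single cultures gave 0 to 1. The cause was not tested beyond the trend values given with each gene. Without the replicate block the count was 0, so treating the arrays of a culture as paired or not changed no call after removal; without both block and removal it was also 0. Row and column medians in place of loess, other normalizations, all 12 columns, leaving out the sources of the copied columns, leaving out dim probes and an unmoderated test each gave 0 too. All 12 columns and the filter on dim probes tested 17 family genes. In the other 3 comparisons the count was 0 in every setting run. The correlation of neighbouring probes was 0.0509 after loess, 0.118 after medians and 0.636 without removal. Arrays of only the compared groups give no test of the difference between genotypes. With 1 IL-1R1-/- culture left out, the lone pair is assumed to vary like the others. Across the alternatives, 22 values moved, 7 passed that had not, and 530 did neither. How much background the intensities hold is unknown, so fold changes are as the intensities show them.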
